A study of Homo sapiens with 14 samples.

Results

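The human potassium channel subunits named KCN or HCN form the subject here: voltage-gated channels, their modifier subunits, HCN channels, calcium-activated channels, inward rectifiers, tandem-pore-domain channels and the auxiliary proteins that join them. Members were chosen by symbol alone, as every gene symbol of the count tables that is KCN or HCN, any further letters and a number. That choice was made with earlier results of these data known. The rule found 100 symbols of 19440, of which 35 had at least 20 ribosome footprints over the 14 libraries. The study is a selective ribosome profiling experiment, in which ribosomes bound to a tagged protein are pulled down and the messenger RNA they protect is sequenced. Its tagged proteins are EMC6, EMC7 and EMC10, subunits of the endoplasmic reticulum membrane protein complex (EMC). The question is which messages are being translated by ribosomes that sit at the EMC.

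All libraries came from Flp-In T-REx 293 cells, an embryonic kidney line with a single integration site and a doxycycline switch, a derivative of HEK293. The EMC6 line is an EMC6 knockout that carries doxycycline-inducible 3Flag-EMC6. The EMC7 and EMC10 lines carry doxycycline-inducible 3Flag-EMC7 and 3Flag-EMC10, and their labels name no knockout. Every line was induced with 0.5 to 1.0 ng/mL doxycycline for 72 h, and translation was held with cycloheximide at harvest. Microsomes, the membrane fraction that holds the endoplasmic reticulum, were treated with micrococcal nuclease and solubilized. The solubilized material is the input, and what Flag beads bound from it is the IP, so each IP has an input of its own. There were 2 inputs and 2 IPs of the EMC6 line, 2 and 2 of the EMC7 line, and 3 and 3 of the EMC10 line, 7 pairs in all. Whether replicates came from separate cultures is not stated, and a p-value here reflects only the scatter of these libraries, which can be technical. No IP from cells without a Flag-tagged bait was analysed here.

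The EMC is an insertase and chaperone of the endoplasmic reticulum. It is known to place some transmembrane segments into the membrane, among them tail anchors and the first segment of proteins whose amino terminus faces the lumen, and to hold multipass proteins while they fold. Pore-forming potassium channel subunits are multipass proteins with a re-entrant pore loop between membrane segments, and most assemble as tetramers around a shared pore. The auxiliary proteins differ in kind: KCNMB beta subunits cross the membrane with a pair of segments, KCNE proteins cross it with a single segment, and KCNAB and KCNIP proteins are soluble and bind the channels from the cytosol.

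Depth was modest and uneven. The inputs held 1692490 to 3395114 counts on genes and the IPs 515302 to 2248591, with the lowest totals in the EMC6 line. Potassium channel members together took 225 to 385 CPM (the usual per-library scaling of counts on genes) in the inputs and 614 to 1150 in the IPs, so the 2 groups of libraries did not overlap. Of the markers of the line, VIM and CDH2 were abundant (23255 and 26912 counts over the inputs), PAX2 had 33 counts in the inputs and 8 in the IPs, and LHX1 and NEFM had 0 and 1. Leukocyte, hepatocyte and erythroid markers were near 0: PTPRC and ALB had 0 counts, CD3E 1 and HBB 5. Each bait's message was higher in its own IPs than in its own inputs, by 7.54 for EMC6, 5.71 for EMC7 and 7.31 for EMC10 on the log2 scale. An input value mixes the amount of a message with the ribosomes it carries, so fewer messages and fewer ribosomes per message cannot be told apart.

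Potassium channel messages with enough footprints to test were, with 1 exception, over-represented in the IPs. Averaged over the 3 lines with equal weight, 24 of the 25 members with enough counts to test were higher in the IPs than in the inputs, 0 were lower, and 1, the beta subunit gene KCNMB4, did not pass the test. No member was lower at an unadjusted p under 0.05 either, and DESeq2 called 24 higher and 0 lower. The 24 are the pore-forming subunits that could be tested. Over all 9458 genes tested, 23.7% were higher and 26.9% lower (edgeR's quasi-likelihood test, Benjamini-Hochberg adjusted p under 0.05). The median log2 change of the pore-forming members was 2.54, against -0.19 for all genes tested, and their changes ran from 1.39 for KCNK1 to 3.23 for HCN2. Values called changes below are log2 IP over input from this fit, with the standard error (SE) after ±, and levels are CPM scaled by TMM factors. Coding lengths were not used, so levels are not compared between genes.

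The gain was visible in single pairs of libraries. In all 7 pairs, 22 of the 24 pore-forming members had more CPM in the IP than in its own input, against 21.1% of all genes tested. The exceptions were HCN4 and KCNS3, higher in 6 of 7. For 19 of the 24 the lowest IP of any line lay above the highest input of any line, against 10.6% of all genes. KCNJ4, HCN4, KCNC1, KCNS3 and KCNN3 overlapped. Both counts, and the overlaps given below, use TMM-scaled CPM. The TMM factors were 0.588 to 1.04 in the IPs and 1.27 to 1.64 in the inputs. That scaling raises IPs relative to inputs, and the counts were not made without it. A filter on low counts was passed by 16 pore-forming members through at least 2 inputs, and 8 passed only through the IPs where they were high, among them KCNC4, KCNQ1, KCNC1, KCND3, KCNS3, KCNN3 and KCNK13. Those 8 had to differ to be tested, so the counts over the tested members are a description of them and not of all 100 symbols. The 16 that passed through inputs were all higher over the mean of the lines, with a median change of 2.47. Of the 9144 genes that passed in that way, 22.9% were higher and 27.8% lower, with a median of -0.21. With every gene of 20 or more counts tested, 30 of 32 pore-forming members were higher over the mean of the lines and 0 lower, against 19.9% and 23.3% of all genes.

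**Figure D1:**
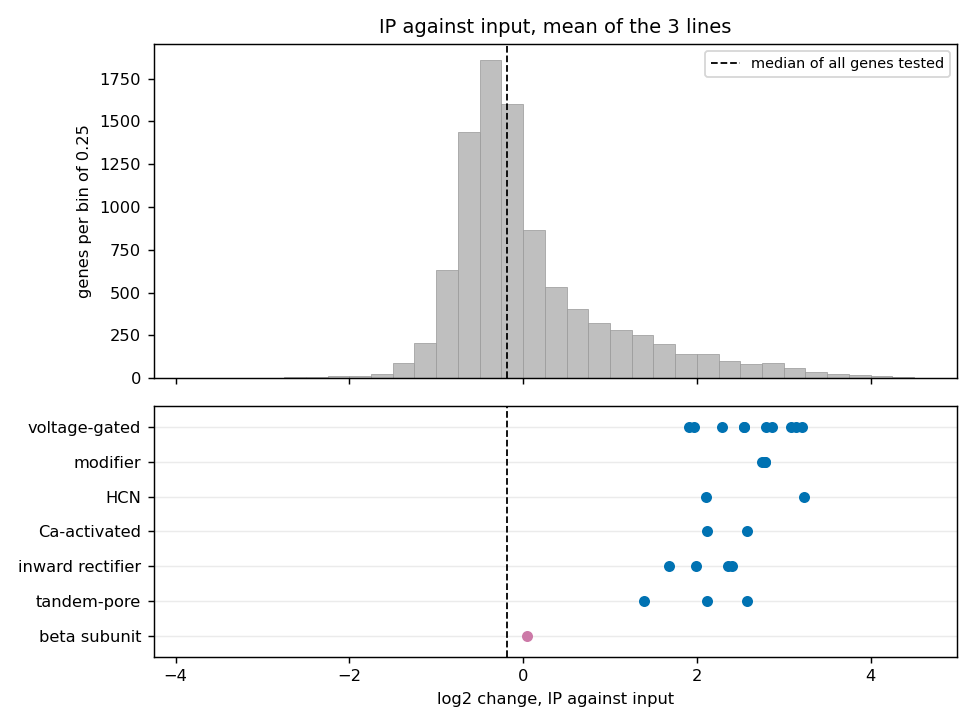
Log2 change, IP against input, as the mean of the 3 lines. The upper panel is a histogram of all 9458 genes tested in bins of 0.25, with their median at -0.19 as a dashed line; the lower panel has a point for each of the 25 tested members, by class, where the pore-forming subunits lie between 1.39 and 3.23 and the beta subunit KCNMB4 lies at 0.04.

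Voltage-gated subunits open their pore when the membrane depolarizes. All 10 that could be tested rose over the mean of the lines, where 23.7% of all genes did. Their median change was 2.67, with a range of 1.91 to 3.21. KCNC4, KCNQ1, KCNC1 and KCND3 among them passed the low-count filter only through the IPs where they were high. KCNH2 (HERG, the channel of the rapid delayed rectifier current of the heart; chr7:150944961-150978321 on GRCh38) changed by 3.08 ± 0.19 (adjusted p = 2.89e-17). Inputs of KCNH2 gave 2.53 and 7.53 CPM with EMC6, 6.28 and 7.40 with EMC7 and 6.49, 5.94 and 5.36 with EMC10. Its IPs gave 35.5 and 71.2 CPM with EMC6, 48.9 and 47.0 with EMC7 and 43.4, 57.3 and 40.1 with EMC10. Every IP lay above every input. KCNA3, the delayed rectifier Kv1.3 known from T lymphocytes (chr1:110653560-110674940), changed by 2.86 ± 0.16 (adjusted p = 2.41e-18). KCNA3 had 6.15 and 16.1 CPM with EMC6, 11.6 and 7.72 with EMC7 and 7.88, 8.57 and 8.30 with EMC10 in the inputs. Against these, its IPs had 82.3 and 101 CPM with EMC6, 66.9 and 60.6 with EMC7 and 48.2, 66.3 and 65.0 with EMC10. Its lowest IP value was also well above its highest input value.

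KCNQ5, a subunit of the M current that steadies neuronal excitability (chr6:72622064-73198853), was the voltage-gated member with the most counts in these libraries. Levels of KCNQ5 were 12.7 and 19.5 CPM with EMC6, 28.9 and 28.3 with EMC7 and 27.8, 31.2 and 31.6 with EMC10 in the inputs, and they were 74.8 and 92.0 CPM with EMC6, 159 and 140.0 with EMC7 and 123, 127 and 136 with EMC10 in the IPs. Its change was 2.29 ± 0.12 (adjusted p = 4.42e-19), with a fold of 4.07 to 5.91 in single pairs, a narrow range. KCNB2 encodes a slow delayed rectifier of the Kv2 group. The KCNB2 footprints were 2.17 and 5.13 CPM with EMC6, 8.14 and 6.76 with EMC7 and 5.33, 8.79 and 9.91 with EMC10 in the inputs. In the IPs they were 28.04 and 19.7 CPM with EMC6, 48.2 and 38.6 with EMC7 and 36.1, 42.1 and 52.5 with EMC10. Its change was 2.54 ± 0.20 (adjusted p = 2.76e-13), and the groups did not overlap. KCNA6 is a further Kv1 subunit (chr12:4809334-4851112). Inputs of KCNA6 gave 6.15 and 4.79 CPM with EMC6, 3.02 and 2.25 with EMC7 and 4.17, 2.42 and 3.75 with EMC10. Its IPs gave 29.9 and 42.7 CPM with EMC6, 17.3 and 29.2 with EMC7 and 18.1, 25.1 and 19.1 with EMC10. It rose by 2.80 ± 0.22 (adjusted p = 3.24e-14).

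KCNC4, a fast-deactivating Kv3 subunit (chr1:110210314-110284080), had the largest change of the class, 3.21 ± 0.25 (adjusted p = 4.14e-14). KCNC4 had 3.25 and 2.40 CPM with EMC6, 3.26 and 2.90 with EMC7 and 2.78, 1.98 and 1.07 with EMC10 in the inputs. Against these, its IPs had 9.35 and 25.2 CPM with EMC6, 29.5 and 24.0 with EMC7 and 26.5, 25.1 and 33.4 with EMC10. The EMC6 IP replicate 1 was the lowest of its IPs and still above all inputs. KCNQ1, the slow delayed rectifier subunit of heart and epithelia (chr11:2445008-2849105), had the smallest change of the class, 1.91 ± 0.35 (adjusted p = 1.29e-05), on few counts. Its raw counts were 3 and 6 with EMC6, 7 and 5 with EMC7 and 7, 18 and 14 with EMC10 in the inputs and 3 and 12 with EMC6, 11 and 6 with EMC7 and 5, 7 and 6 with EMC10 in the IPs. Raw counts are not scaled for depth, and the IPs were the shallower libraries. KCND3, an A-type subunit (chr1:111770662-111989668), rose by 3.14 ± 0.49 (adjusted p = 2.70e-08) with 32 counts over all inputs and 57 over all IPs. KCNC1, another Kv3 subunit (chr11:17734781-17783057), rose by 1.96 ± 0.41 (adjusted p = 1.57e-04) with 56 and 53 counts. Without EMC6 IP replicate 2 the change of KCNC1 was 1.52 (adjusted p = 0.140) and no longer passed.

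**Figure D2:**
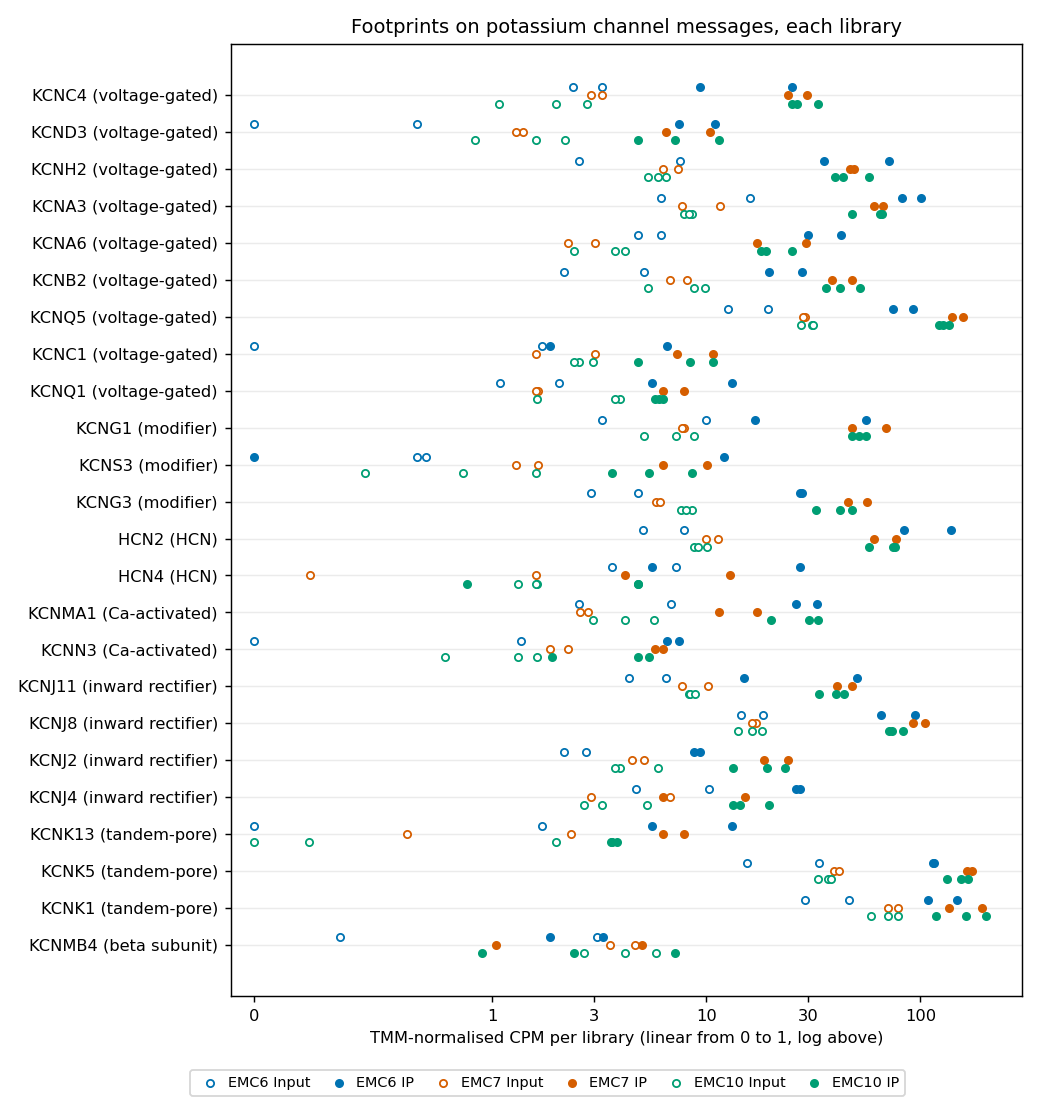
Footprints (TMM-scaled CPM, axis linear up to 1 and logarithmic above) on 24 of the 25 tested members in each of the 14 libraries. Open circles are inputs, filled circles IPs, and colours are the baits. Filled circles lie to the right of open circles of the same colour for most members, with KCNMB4 in the bottom row as the one whose filled and open circles mix in all 3 colours.

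Modifier subunits (KCNF, KCNG, KCNS, KCNV) form no working channel alone and change the gating of Kv2 channels when they join them. All 3 that could be tested rose, where 23.7% of all genes did. The changes were 2.79 ± 0.21 for KCNG1, 2.79 ± 0.47 for KCNS3 and 2.76 ± 0.18 for KCNG3. Their adjusted p were 2.49e-12, 1.73e-06 and 4.99e-16 (edgeR). The KCNG1 footprints were 3.25 and 9.92 CPM with EMC6, 7.91 and 7.72 with EMC7 and 5.10, 8.79 and 7.23 with EMC10 in the inputs. In the IPs they were 16.8 and 55.9 CPM with EMC6, 69.0 and 48.0 with EMC7 and 51.8, 55.5 and 47.8 with EMC10. The KCNG1 gene lies at chr20:51003656-51023107. KCNG3 lies at chr2:42388352-42493982. Inputs of KCNG3 gave 2.89 and 4.79 CPM with EMC6, 5.82 and 6.11 with EMC7 and 7.65, 8.57 and 8.04 with EMC10. Its IPs gave 28.04 and 27.4 CPM with EMC6, 56.1 and 46.0 with EMC7 and 32.5, 42.1 and 47.8 with EMC10. Neither gene's IPs overlapped its inputs. KCNS3 (chr2:17877847-17932958) rested on 27 input and 49 IP counts, with 0 in EMC6 IP replicate 1. It passed the low-count filter only through the IPs. Without EMC6 IP replicate 2 its change over the lines was 0.39 (adjusted p = 0.934), which does not pass. KCNB2, a partner these modifiers are known to join, is given above with 2.54.

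HCN channels open on hyperpolarization and carry the pacemaker current. Both that could be tested rose over the mean of the lines, where 23.7% of all genes did. HCN2, known from thalamus and heart (chr19:589881-617159), had the largest change of all tested members, 3.23 ± 0.15 (adjusted p = 1.07e-20). HCN2 had 5.06 and 7.87 CPM with EMC6, 11.4 and 9.97 with EMC7 and 8.81, 10.1 and 9.11 with EMC10 in the inputs. Against these, its IPs had 84.1 and 139 CPM with EMC6, 76.9 and 60.6 with EMC7 and 74.7, 57.3 and 76.4 with EMC10. No IP overlapped any input, and the IP over input fold of single pairs was 16.6 and 17.7 with EMC6, 6.75 and 6.07 with EMC7, and 8.48, 5.67 and 8.39 with EMC10. HCN4, the main HCN channel of the sinoatrial node (chr15:73319859-73368958), rose by 2.103 ± 0.42 (adjusted p = 7.41e-05). Levels of HCN4 were 3.62 and 7.19 CPM with EMC6, 0.233 and 1.61 with EMC7 and 1.62, 1.32 and 1.61 with EMC10 in the inputs, and they were 5.61 and 27.4 CPM with EMC6, 12.9 and 4.18 with EMC7 and 4.82, 0.896 and 4.78 with EMC10 in the IPs. The EMC6 inputs lay above all other HCN4 inputs, and EMC10 IP replicate 2 lay below its own input, so the groups overlapped. HCN3 had 0 counts in all libraries together.

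Calcium-activated channels couple the pore to cytosolic calcium. KCNMA1, the pore of the large-conductance BK channel (chr10:76869602-77637808), rose by 2.58 ± 0.24 (adjusted p = 5.19e-12). The KCNMA1 footprints were 2.53 and 6.84 CPM with EMC6, 2.79 and 2.57 with EMC7 and 4.17, 5.72 and 2.95 with EMC10 in the inputs. In the IPs they were 26.2 and 32.9 CPM with EMC6, 17.3 and 11.5 with EMC7 and 30.1, 33.1 and 20.1 with EMC10. Its IPs and inputs did not overlap. KCNN3, a small-conductance subunit gated through calmodulin (chr1:154697455-154870281), rose by 2.12 ± 0.45 (adjusted p = 8.22e-05). It passed the low-count filter only through the IPs. Its raw counts were 0 and 4 with EMC6, 8 and 7 with EMC7 and 7, 6 and 3 with EMC10 in the inputs and 4 and 6 with EMC6, 8 and 6 with EMC7 and 4, 6 and 2 with EMC10 in the IPs.

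KCNMB4, a beta subunit whose product joins the KCNMA1 pore (chr12:70366290-70434292), did not pass the test. It changed by 0.04 ± 0.48 (adjusted p = 0.950), with a 95% interval of -0.93 to 1.01. Inputs of KCNMB4 gave 0.362 and 3.08 CPM with EMC6, 4.65 and 3.54 with EMC7 and 5.80, 4.18 and 2.68 with EMC10. Its IPs gave 1.87 and 3.29 CPM with EMC6, 5.03 and 1.04 with EMC7 and 2.41, 7.17 and 0.955 with EMC10. The IP was above its input in 4 of 7 pairs, and the groups overlapped in every line. Its counts were few, 95 over the inputs and 23 over the IPs, and the interval of KCNMA1 ran from 2.103 to 3.06, above that of KCNMB4. Scaling by library size alone gave -0.90 (adjusted p = 0.0622), and the fit with line and replicate as a block gave -0.02 (adjusted p = 0.971), so no direction is given for KCNMB4.

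Inward rectifiers are tetramers of subunits with a pair of membrane segments around the pore loop. All 4 that could be tested rose, where 23.7% of all genes did, with a median change of 2.18. KCNJ8 and KCNJ11 are the pores of ATP-sensitive channels. KCNJ8 (chr12:21764955-21774706) rose by 2.36 ± 0.12 (adjusted p = 1.25e-18). KCNJ8 had 14.5 and 18.5 CPM with EMC6, 16.99 and 16.4 with EMC7 and 14.1, 18.2 and 16.3 with EMC10 in the inputs. Against these, its IPs had 65.4 and 94.2 CPM with EMC6, 92.8 and 106 with EMC7 and 73.5, 71.7 and 83.1 with EMC10. KCNJ11 (chr11:17385248-17389346) rose by 2.41 ± 0.19 (adjusted p = 6.72e-14), the most of the class. Levels of KCNJ11 were 4.34 and 6.50 CPM with EMC6, 10.2 and 7.72 with EMC7 and 8.35, 8.35 and 8.84 with EMC10 in the inputs, and they were 15.0 and 50.4 CPM with EMC6, 48.2 and 40.7 with EMC7 and 33.7, 40.3 and 43.9 with EMC10 in the IPs. For both, every IP lay above every input; the lowest IP of KCNJ11 was EMC6 IP replicate 1.

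KCNJ2 and KCNJ4 are strong inward rectifiers that set the resting potential of heart and brain cells. KCNJ2 (chr17:70169532-70180044) rose by 1.99 ± 0.25 (adjusted p = 4.80e-08). The KCNJ2 footprints were 2.17 and 2.74 CPM with EMC6, 5.12 and 4.50 with EMC7 and 3.94, 5.94 and 3.75 with EMC10 in the inputs. In the IPs they were 9.35 and 8.76 CPM with EMC6, 18.7 and 24.0 with EMC7 and 19.3, 23.3 and 13.4 with EMC10. KCNJ4 (chr22:38426327-38455199) had the smallest change of the class, 1.68 ± 0.24 (adjusted p = 4.58e-07). Inputs of KCNJ4 gave 4.70 and 10.3 CPM with EMC6, 6.75 and 2.90 with EMC7 and 3.25, 5.28 and 2.68 with EMC10. Its IPs gave 26.2 and 27.4 CPM with EMC6, 15.1 and 6.27 with EMC7 and 14.5, 19.7 and 13.4 with EMC10. The lowest KCNJ4 IP, in the EMC7 line, lay below an EMC6 input and an EMC7 input, so its groups overlapped across lines. In each of the 7 pairs the KCNJ4 IP was above its own input.

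Tandem-pore-domain channels carry a pair of pore loops in each subunit, work as dimers and give background potassium leak. KCNK1 and KCNK5 were the members with the most counts, 2739 and 1916. KCNK1 (TWIK-1; chr1:233614106-233672514) had the smallest change of all tested pore-forming members, 1.39 ± 0.13 (adjusted p = 4.78e-11). KCNK1 had 28.9 and 46.5 CPM with EMC6, 78.4 and 70.8 with EMC7 and 59.1, 78.9 and 70.5 with EMC10 in the inputs. Against these, its IPs had 108 and 148 CPM with EMC6, 193 and 136 with EMC7 and 118, 203 and 164 with EMC10. KCNK5 (TASK-2, an acid-sensitive channel of kidney tubule; chr6:39188971-39229475) changed by 2.12 ± 0.12 (adjusted p = 2.57e-17). Levels of KCNK5 were 15.6 and 33.5 CPM with EMC6, 39.3 and 41.8 with EMC7 and 36.9, 38.3 and 33.2 with EMC10 in the inputs, and they were 114 and 116 CPM with EMC6, 165 and 174 with EMC7 and 155, 168 and 133 with EMC10 in the IPs. In the same 7 pairs the fold of KCNK5 was larger than that of KCNK1 each time, by a factor of 1.09 to 2.17 with a median of 1.71. For neither gene did an IP overlap an input on the TMM scale. Without the TMM factors, 0.623 for EMC10 IP replicate 1 and 1.38 for its input, the KCNK1 groups overlap. KCNK13 (THIK-1, halothane-inhibited; chr14:90061994-90185853), with counts of 0 and 5 with EMC6, 10 and 2 with EMC7 and 1, 9 and 0 with EMC10 in the inputs and 3 and 12 with EMC6, 11 and 6 with EMC7 and 3, 4 and 4 with EMC10 in the IPs, rose by 2.58 ± 0.52 (adjusted p = 3.72e-05). KCNK13 passed the low-count filter only through the IPs. With scaling by library size alone, the change of KCNK1 was 0.44 (adjusted p = 0.00189) over the lines, 0.13 (adjusted p = 0.597) with EMC7 and 0.12 (adjusted p = 0.546) with EMC10. On that scale the median of all genes was -1.13 over the lines.

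**Figure D3:**
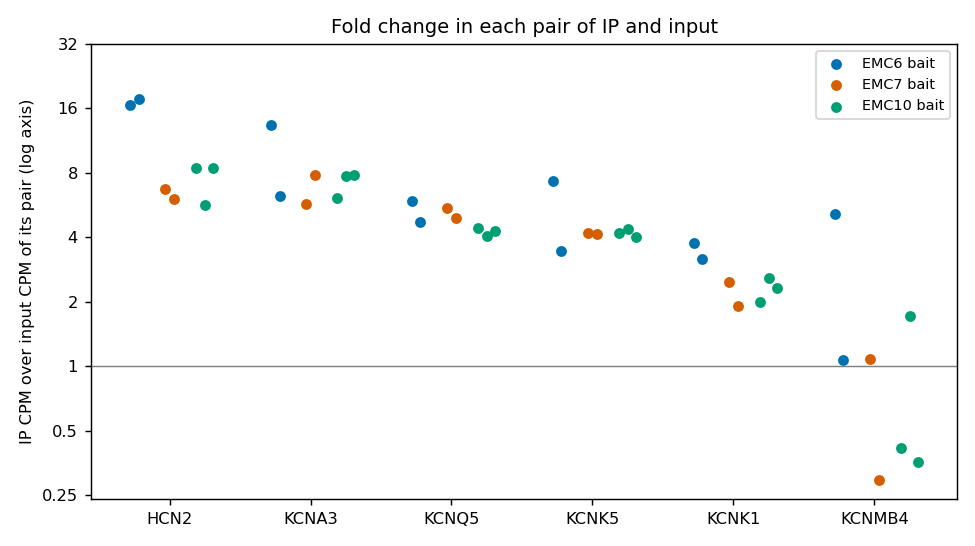
IP over input fold of CPM in each of the 7 pairs, on a logarithmic axis, for HCN2, KCNA3, KCNQ5, KCNK5, KCNK1 and KCNMB4; each point is a pair, coloured by bait, and the line marks 1. HCN2 has its highest points in the 2 EMC6 pairs, KCNK1 lies below KCNK5 in each pair, and KCNMB4 has points on both sides of 1.

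The cytosolic partners did not pass the low-count filter, so they could be compared only at low depth and outside the main fit. KCND3, KCNS3, KCNN3 and KCNK13 passed that filter through their IPs on 89, 76, 71 and 70 counts. KCNAB2, with 92, did not pass it, so the count of 0 lower in the main fit does not cover KCNAB2. KCNAB2, a soluble Kv beta subunit with an oxidoreductase fold (chr1:5992676-6101180), was the one with the most counts, 9 and 22 with EMC6, 13 and 11 with EMC7 and 12, 9 and 5 with EMC10 in the inputs and 0 and 3 with EMC6, 2 and 2 with EMC7 and 0, 4 and 0 with EMC10 in the IPs. That is 81 over the inputs and 11 over the IPs, and the IP CPM was below the input in 6 of 7 pairs. With every gene of 20 or more counts in the fit its change was -0.98 ± 0.55 (adjusted p = 0.109), which does not pass. KCNIP3, a calcium sensor that binds Kv4 channels, had 3 and 0 with EMC6, 4 and 4 with EMC7 and 0, 0 and 7 with EMC10 in the inputs and 0 and 2 with EMC6, 4 and 1 with EMC7 and 1, 2 and 0 with EMC10 in the IPs, and its change in the same fit was 0.98 ± 0.81 (adjusted p = 0.334). KCNAB1, KCNAB3 and the other 3 KCNIP genes had 4 counts together. The 6 KCNE symbols, the small single-pass subunits, had 0 counts in every library. Over 18733135 input and 10057298 IP counts a count of 0 allows up to 0.160 and 0.298 CPM (3 counts over the group, counting error only). No comparison of pore-forming subunits with KCNE was therefore possible. The other 3 KCNMB genes had 1 count together.

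A further 8 pore-forming members had 20 or more counts but too few per library for the filter of the main fit. In the fit of all genes with 20 or more counts, 6 of the 8 were higher over the mean of the lines and 0 lower, against 19.9% and 23.3% of all genes in that fit. KCND1, another A-type subunit, rose by 2.44 ± 0.79 (adjusted p = 0.00149). KCNJ12 rose by 2.12 ± 0.86 (adjusted p = 0.0342), but its sequence is nearly the same as that of KCNJ18, so its counts are uncertain. KCNN1 changed by 2.15 (adjusted p = 0.0446), with no SE because both EMC7 inputs had 0 counts. KCNA2 stood at 0.83 ± 0.98 (adjusted p = 0.502) and KCNK6 at 1.59 ± 0.80 (adjusted p = 0.0985), and neither passed; the KCNK6 locus overlaps YIF1B, so reads of the shared stretch are uncertain. The remaining 65 symbols had under 20 counts each, 38 of them 0, and together held 53 counts in the inputs and 72 in the IPs.

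A list of related channels and partners outside the rule was read by role. The list was drawn up with earlier results of these data known, so it is a description and no independent check. Of the 3 membrane pores with enough counts, all rose over the mean of the lines, where 23.7% of all genes did: the endolysosomal channel TMEM175 by 3.28 ± 0.13, and the trimeric cation channels TMEM38A and TMEM38B of the reticulum by 3.50 ± 0.20 and 2.07 ± 0.10 (adjusted p between 2.11e-22 and 8.60e-19). Of 3 membrane accessory genes, ABCC8, the sulfonylurea receptor that pairs with KCNJ11, rose by 3.19 ± 0.35 (adjusted p = 1.79e-10) and AMIGO1, a single-pass Kv2 partner, by 1.32 ± 0.27 (adjusted p = 1.21e-04). LRRC26, a single-pass BK partner, stood at 1.13 ± 0.49 (adjusted p = 0.0566). All 5 cytosolic partners tested fell, as did 26.9% of all genes, whose median was -0.19, among them the calmodulin genes CALM2 and CALM3 by 0.67 ± 0.11 and 0.66 ± 0.15, and the scaffold genes DLG1 and DLG3 by 1.03 ± 0.19 and 0.65 ± 0.24. The adjusted p of these 4 were 1.55e-06, 2.58e-04, 1.17e-05 and 0.0197. The other 15 genes of the list had too few counts.

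With each bait alone, pore-forming members again made up the calls. With EMC6, 23 of 25 members were higher and 0 lower, against 17.6% and 9.27% of all genes. KCNC1 (2.38 ± 0.99, adjusted p = 0.0636) and KCNMB4 (0.64 ± 1.06, adjusted p = 0.716) did not pass. With EMC7, 22 were higher and 0 lower, against 20.4% and 9.68%. KCNMB4 (-0.30 ± 0.74, adjusted p = 0.803), KCNN3 (1.53 ± 0.65, adjusted p = 0.0740) and KCNJ4 (1.16 ± 0.47, adjusted p = 0.0589) did not pass, though KCNJ4 did with line and replicate as a block (1.14, adjusted p = 0.0323). With EMC10, 21 were higher and 0 lower, against 19.9% and 13.9%. KCNMB4 (-0.22 ± 0.62, adjusted p = 0.821), HCN4 (1.12 ± 0.74, adjusted p = 0.266), KCNQ1 (0.94 ± 0.47, adjusted p = 0.133) and KCNN3 (1.62 ± 0.65, adjusted p = 0.0539) did not pass. These counts include the 8 members that passed the low-count filter only through the IPs. Of the 16 pore-forming members that passed through inputs, 16 were higher with EMC6, 15 with EMC7 and 15 with EMC10. Of all genes that passed in that way, 17%, 19.9% and 19.3% were higher. At an unadjusted p under 0.05, 0 members were lower with any bait, and DESeq2 called 0 lower. The pore-forming median was 2.69 with EMC6, 2.45 with EMC7 and 2.26 with EMC10, and the median of all genes was -0.12, -0.14 and -0.17. Library size scaling left 21 members higher with EMC6, 18 with EMC7 and 18 with EMC10, against 10.5%, 10.6% and 8.04% of all genes. It ended the calls of HCN4 and KCNJ2 with EMC6 (1.06 and 1.14, adjusted p = 0.0914 and 0.0960, edgeR). With EMC7 it ended those of KCNC1, KCNK13 and KCNQ1 (0.91, 1.13 and 1.11, adjusted p = 0.140, 0.170 and 0.0911), and with EMC10 those of KCNC1 and KCNK13 (0.49 and 1.05, adjusted p = 0.339 and 0.231), besides KCNK1 with both as given above. A count of calls in a single line is no measure of how the lines differ, since depth and the number of libraries differ as well.

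Several single-bait calls rested on a library. Without EMC6 IP replicate 2, which leaves the shallowest library as the only EMC6 IP, 13 members were higher with EMC6, against 9.95% of all genes. HCN4, KCNC4, KCNG1, KCNJ11, KCNJ2, KCNK13, KCNN3 and KCNQ1 then kept their sign but did not pass (0.04 to 3.31, adjusted p 0.0791 to 0.991), and KCNS3, with 0 counts in the library that was left, turned to -3.87 (adjusted p = 0.713). Without EMC6 input replicate 1, HCN4, KCNJ2 and KCNN3 did not pass with EMC6 (1.38 to 2.29, adjusted p 0.0699 to 0.0840). KCNC1 passed with EMC6 without EMC6 IP replicate 1 (2.94, adjusted p = 0.0264) or EMC6 input replicate 2 (6.52, adjusted p = 0.00360). With EMC7, HCN4, KCNC1, KCNK13, KCNQ1 and KCNS3 did not pass without EMC7 IP replicate 1 (1.57 to 2.27, adjusted p 0.133 to 0.248). KCNC1 and KCNK13 did not pass without EMC7 input replicate 2 (1.59 to 1.599, adjusted p 0.0614 to 0.165), nor KCNK13 without EMC7 IP replicate 2 (2.26, adjusted p = 0.0680). KCNJ4 passed with EMC7 when either EMC6 input, EMC7 input replicate 1 or EMC7 IP replicate 2 was left out (1.13 to 1.94, adjusted p 0.0153 to 0.0400). With EMC10, KCNK13, at 2.14 ± 0.86 (adjusted p = 0.0498), did not pass without any single one of EMC7 IP replicates 1 and 2, EMC10 input replicates 1 and 3 and the 3 EMC10 IPs (1.66 to 2.17, adjusted p 0.0560 to 0.141). KCNC1 did not pass with EMC10 without EMC10 IP replicate 2 (1.28, adjusted p = 0.135). KCNN3 passed with EMC10 without either EMC6 input or EMC10 IP replicate 3 (1.605 to 1.98, adjusted p 0.0364 to 0.0450).

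**Figure D4:**
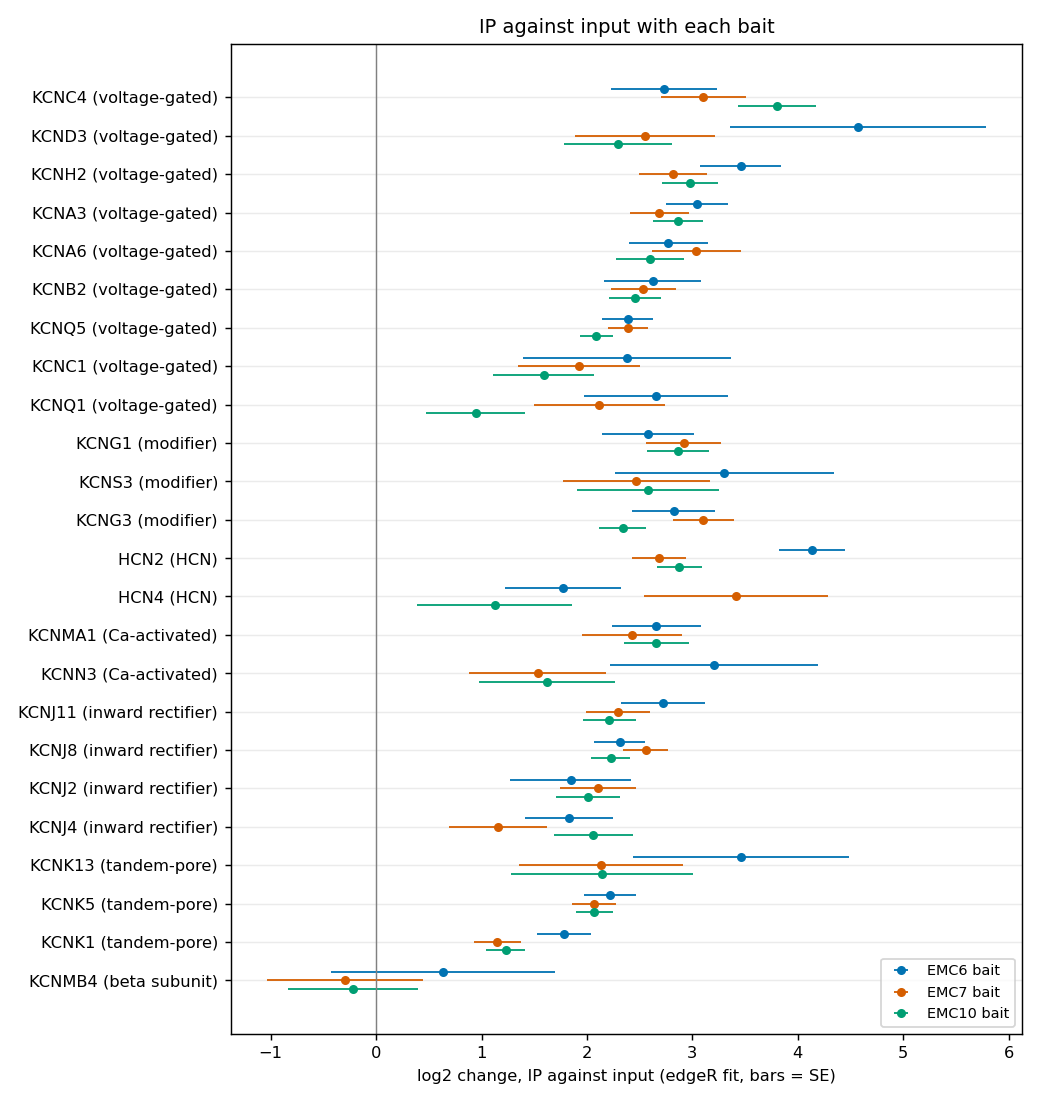
Log2 change, IP against input, of 24 of the 25 tested members with each bait (points, edgeR fit) with its SE (bars); the vertical line marks 0. All 23 pore-forming members drawn have their 3 points to the right of 0, HCN2 is highest with EMC6 at 4.14, and KCNMB4 lies on both sides of 0.

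The difference in IP over input change between baits was tested directly, gene by gene. None of the 25 members passed in any of the 3 comparisons (edgeR; over all genes 0.518%, 0.074% and 0.159% passed for EMC6 against EMC7, EMC6 against EMC10 and EMC7 against EMC10). At an unadjusted p under 0.05 there were 1, 3 and 2 of the 25 members. The share of all genes at that threshold was not computed, so these counts are not read as a result. DESeq2 called 0 members in each comparison. For the members with many counts the intervals were narrower than that of HCN4, but they do not exclude a difference between baits. The KCNQ5 change with EMC7 less that with EMC10 was 0.30 (95% interval -0.21 to 0.81), and that of KCNK5 was -0.004 (95% interval -0.56 to 0.55). For KCNJ8 the EMC6 less EMC7 difference was -0.25 (95% interval -0.91 to 0.41). For KCNK1 it was 0.63 (95% interval -0.06 to 1.33). For HCN4 it was -1.64 (95% interval -3.74 to 0.46), an interval too wide to place the baits.

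HCN2 came nearest to a difference between baits. Its change was 4.14 ± 0.31 with EMC6, 2.68 ± 0.26 with EMC7 and 2.88 ± 0.22 with EMC10. The EMC6 change less the EMC7 change was 1.45 (95% interval 0.63 to 2.28), with an adjusted p of 0.0860 (edgeR), and less the EMC10 change it was 1.26 (95% interval 0.49 to 2.03), with an adjusted p of 0.483. The same EMC6 libraries enter both, and these intervals are not adjusted over genes. In the EMC6 inputs HCN2 stood at -0.62 against the mean of the other inputs (adjusted p = 0.0860, edgeR). Without EMC6 input replicate 2 it stood at -1.03. A lower input raises the change of its line, and the part of the inputs in the bait difference was not tested. Pairing each IP with its input as a block gave 1.41 (adjusted p = 0.00273) and 1.23 (adjusted p = 0.0181), which pass, and in that fit 267 genes were higher and 330 lower over all genes for EMC6 against EMC7, as against 18 and 31 without the block. Library size scaling gave 1.76 (adjusted p = 0.00765) and 1.67 (adjusted p = 0.00664). That scaling also moved all genes, whose median differences were then 0.32 and 0.46, against 0.01 and 0.06 in the main fit. On it 2.06% and 5.21% of all genes were higher. Without EMC6 IP replicate 1 the differences were 1.86 (adjusted p = 0.00821) and 1.65 (adjusted p = 0.0290), and without EMC6 input replicate 2 they were 1.95 (adjusted p = 0.0109) and 1.75 (adjusted p = 0.0233). Without EMC6 IP replicate 2 they were 1.00 (adjusted p = 0.396) and 0.80 (adjusted p = 0.692). Over all 14 libraries left out in turn, the adjusted p of HCN2 ran from 0.00821 to 0.396 for EMC6 against EMC7 and from 0.0233 to 0.864 for EMC6 against EMC10. The EMC6 line differs from the others in its knockout, its depth and its share of reads outside genes, and these cannot be told apart from the bait.

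An input value gives the scaled share of microsome footprints on a message before the pull-down. Against the mean of the EMC7 and EMC10 inputs, 5 of the 25 members were lower in the EMC6 inputs and 1 was higher, against 21.8% and 15.3% of all genes. KCNK1 differed by -0.93 ± 0.20 (adjusted p = 5.78e-04), KCNQ5 by -0.86 ± 0.20 (adjusted p = 6.01e-04), KCNK5 by -0.63 ± 0.20 (adjusted p = 0.0121), KCNB2 by -1.06 ± 0.38 (adjusted p = 0.0181) and KCNG3 by -0.84 ± 0.34 (adjusted p = 0.0398). HCN4 was higher, by 2.23 ± 0.58 (adjusted p = 0.00150). The EMC6 inputs had 11.5% and 12.5% of counts in rows that name no gene, against 4.68% to 5.15% in the other inputs, and their part in these differences was not tested.

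Most of these input differences rested on single libraries. Without EMC6 input replicate 1, 1 member was lower and 4 were higher, against 16.2% and 9.95% of all genes; KCNQ5 stood at -0.61 (adjusted p = 0.0503), KCNK5 at -0.21 (adjusted p = 0.511), KCNB2 at -0.60 (adjusted p = 0.306) and KCNG3 at -0.55 (adjusted p = 0.362). Without EMC6 input replicate 2, 12 were lower and 0 higher, against 22% and 10% of all genes, and HCN4 stood at 1.601 (adjusted p = 0.0945). Without EMC7 input replicate 1, 3 were lower and 2 higher, against 18.7% and 11.3%, with KCNB2 at -0.99 (adjusted p = 0.0547) and KCNG3 at -0.86 (adjusted p = 0.0675). KCNG3 also did not pass without EMC7 input replicate 2, EMC10 input replicate 2 or EMC10 input replicate 3 (adjusted p 0.0514 to 0.0685), and without EMC10 input replicate 2 there were 2 members higher, against 13.8%. With library size scaling 2 were lower and 3 higher, against 15.4% and 36.3%. KCNK1 kept its call in each of these, at -0.65 (adjusted p = 0.0250), -1.37 (adjusted p = 9.69e-06) and -0.63 (adjusted p = 0.0105). Between the EMC7 and EMC10 inputs no member passed (edgeR; 0.0211% of all genes passed), with 0 members at an unadjusted p under 0.05 and 0 called by DESeq2.

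**Figure D5:**
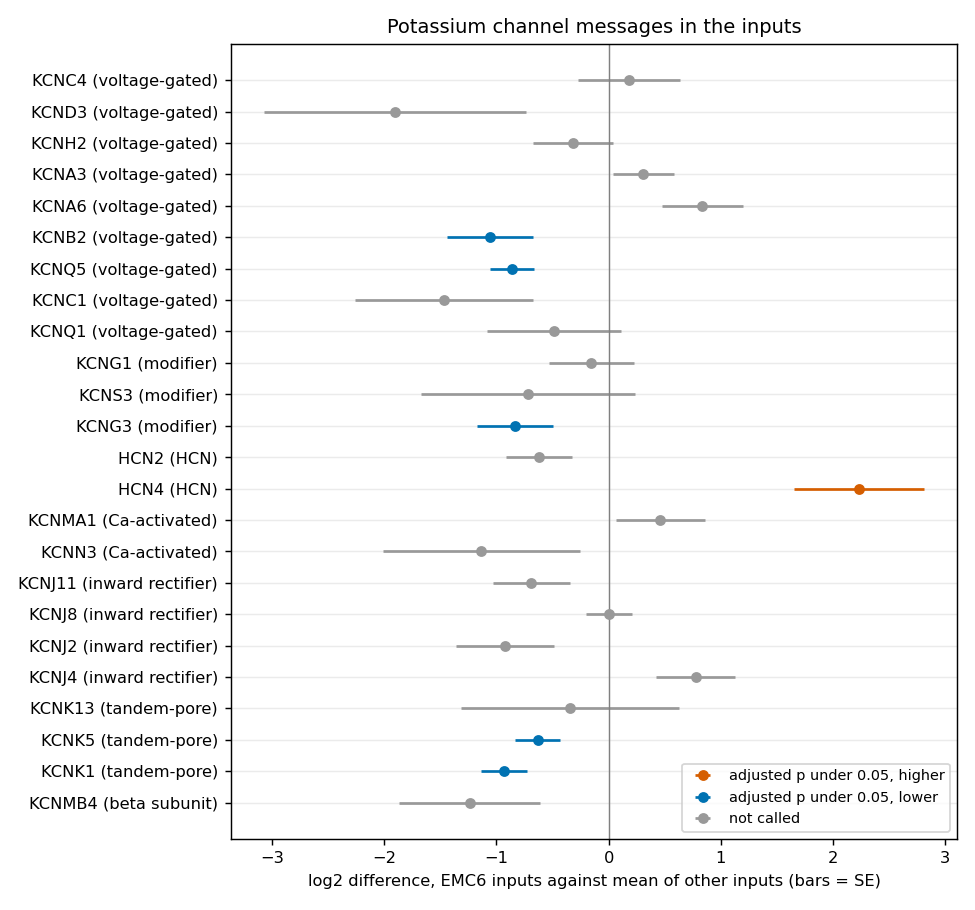
Log2 difference of 24 of the 25 tested members between the EMC6 inputs and the mean of the EMC7 and EMC10 inputs (points, edgeR fit) with its SE (bars). Blue marks the 5 members lower at an adjusted p under 0.05, orange the 1 higher (HCN4, 2.23), grey those that did not pass.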

How the data were processed

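Ribosome footprints were counted in 7 inputs and 7 IPs of 3 lines. The submitters' processing notes list cutadapt 4.1, Bowtie2 2.2.6, TopHat2 2.1.0 and build hg38. The deposited files hold counts per gene symbol; 5 closing rows name no gene, took 2.76% to 12.5% of each library and were left out. How the authors treated reads shared by genes, strand or duplicates is not given in the sources used here. Positions come from RefSeq on GRCh38.p14, which matched 18968 symbols and 99 members.

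One edgeR 4.0.16 fit (R 4.3.3; TMM, filterByExpr, 9458 genes, robust quasi-likelihood, Benjamini-Hochberg over all genes) had a mean for each line and fraction. It was tested on simulated data. DESeq2 1.42.0, library size scaling, other filters, a block and left-out libraries were alternatives. IP and input share a line and a batch label and the IP is made from the input, so they are pairs; their deviations correlated by 0.27 in the EMC6 line, 0.0744 in EMC7 and 0.0411 to 0.0951 in EMC10.

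Members and gene lists were chosen with earlier results of these data known. Values in every library are given for tested members of at least 10 CPM in a group, those not called over the lines, and the extremes of each class. Members were also checked for overlapping loci. Protein features were planned but not run. Some genes are not reported individually here, in the text or the plots by gene, and stay in the counts.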

Additional observations from a re-analysis of the deposited data

How the results depend on the processing

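Over the mean of the 3 lines, 24 members were higher under DESeq2, library size scaling and the replicate block, and also without the EMC6 line, an alternative chosen after seeing the data; leaving out 1 library gave 23 to 26. Single libraries left 13 to 25 higher with EMC6, 17 to 24 with EMC7 and 19 to 23 with EMC10, and 0 lower throughout. Over the mean of the lines, 24.9% of all genes were higher under DESeq2 and 12% under library size scaling. The shares were 24.7% with the block and 22.8% without the EMC6 line. The pore-forming median was 2.81 (EMC6), 2.54 (EMC7) and 2.66 (mean) under DESeq2. Library size scaling moves the median of all genes to -0.83, -1.15, -1.28 and -1.13. It gave pore-forming medians of 1.97 (EMC6), 1.44 (EMC7), 1.14 (EMC10) and 1.596 (mean). With EMC10 it called 1 member lower, KCNMB4 at -1.32 (adjusted p = 0.0317, edgeR), where 75.8% of all genes were lower. It also ended 9 calls in single lines: HCN4 and KCNJ2 (EMC6), KCNC1, KCNK1, KCNK13 and KCNQ1 (EMC7), and KCNC1, KCNK1 and KCNK13 (EMC10). For differences between baits, library size scaling called 1 member higher for EMC6 against EMC7 and 1 for EMC6 against EMC10, both HCN2. On that scale 2.06% and 5.21% of all genes were higher. The replicate block also called 1 and 1, HCN2 at 1.41 and 1.23, where 2.82% and 1.88% of all genes were higher. Besides HCN2 and KCNJ4 with EMC7, the block changed no member's call. Leaving out 1 library moved HCN2 as given above. In the EMC6 inputs, library size scaling gave 3 higher and 2 lower, all genes with 20 or more counts 2 higher, and left-out libraries 0 to 4 higher and 1 to 12 lower. KCNS3 with EMC6 ran from -3.87 (adjusted p = 0.713, edgeR; without EMC6 IP replicate 2, leaving a lone IP with 0 counts) to 4.11 (without EMC6 IP replicate 1).

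Depth limits what can be said of 65 symbols under 20 counts, among them every KCNE, and of the soluble partners. In simulated data, a fold of 2 was recovered for 34.7% of changed genes with EMC6, 42.9% with EMC7, 67.3% with EMC10 and 85.7% over the mean of the lines, so a member that did not pass in a line is not shown to be unmoved. The simulation drew IPs and inputs from the same input profile and averaged over genes of all depths. It therefore does not test the TMM scaling, or recovery at the counts of these members. The protein features were not run.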
